A study of Mus musculus with 52 samples.

Results

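The nucleus accumbens of mice infused with insulin at a high rate was compared with that of mice infused at a low rate, using the 6 libraries whose labels carry the high rate and the 6 whose labels carry the low rate, 12 of the 52 RNA libraries in the series. The high rate was 12 mU/kg/min and the low rate 4 mU/kg/min, each given through a jugular catheter to conscious male C57BL/6J mice aged 3 months. Infusion lasted 3 h, as a clamp in which a 20% glucose solution was infused to hold blood glucose, so all 12 libraries come from catheterised mice that received insulin and could receive glucose. Another 6 libraries came from mice of the same strain, sex and age infused with saline and labelled basal, and they add to the estimate of spread. The labels do not say whether the 6 libraries of a group came from separate animals, so the p-values measure only the spread between these libraries.

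The nucleus accumbens is the ventral part of the striatum and is built mostly of GABAergic projection neurons that express either the D1 or the D2 dopamine receptor. It receives dopamine from the ventral tegmental area and glutamate from cortex, hippocampus, amygdala and thalamus, and it is known for its role in reward and food seeking. Insulin acts through the insulin receptor and IRS adaptors on PI3K and AKT, which restrain FOXO transcription factors and activate mTORC1 and SREBP, the factors behind fasting genes, protein synthesis and sterol synthesis.

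No gene passed the threshold between the high and the low rate. Of 13769 genes tested, 0 had an adjusted p under 0.05 (0%), by edgeR's quasi-likelihood test with Benjamini-Hochberg adjustment, and the smallest adjusted p was 0.999. DESeq2 and limma-voom also called 0 genes. At an unadjusted p under 0.05, edgeR gave 292 genes (2.12%), with 161 higher (1.17%) and 131 lower (0.951%) at the high rate, DESeq2 gave 276 and limma-voom gave 273. Chance alone gives about 1 in 20 genes at that cutoff, a larger share than the 2.12% seen. The table holds enough precision to bound most differences: the median standard error of a log2 fold change, high minus low, was 0.17, and the 95% interval lay inside -1 to 1, within a doubling or halving, for 93.8% of genes and inside -0.5 to 0.5 for 56.2%. Among the 11705 genes with a mean of at least 5 CPM (read counts scaled to library size), those shares were 97.6% and 65.8%. Across all genes the median log2 fold change was -0.0044, the 10th and 90th percentiles were -0.20 and 0.23, and 34 genes exceeded 1 in size. The p-values above apply to single genes, and differences inside these intervals are not excluded. The intervals are not adjusted for the number of genes tested and are not a limit of detection. A gene whose interval leaves out 0 could still go uncalled.

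Total counts ranged from 3488471 to 8279612 in the high-rate libraries and from 2740097 to 7299116 in the low-rate libraries, and did not differ by a two-sided exact permutation test (p = 0.80). Markers of striatal projection neurons were expressed in all 12 libraries, at a summed 3313 to 6892 CPM in the high-rate group and 3075 to 6610 CPM in the low-rate group. The libraries also held unequal amounts of RNA from neighbouring regions. The 10 markers of cortical excitatory neurons, of which 7 passed the filter on low counts, summed to 58.4 to 872 CPM in the high-rate group and 48.4 to 847 CPM in the low-rate group, with high replicate 5, low replicate 4 and low replicate 2 on top. Among hypothalamic peptide genes only Oxt and Trh passed the filter, and Oxt was listed at 0 in high replicate 5 and low replicate 4. Library tags fall into 3 ranges of numbers that each hold equally many high-rate and low-rate libraries, and with the range as a term 0 genes were called and 490 had an unadjusted p under 0.05.

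The genes ranked first among those higher at the high rate included 3 that are characteristic of skeletal muscle, Ttn, Acta1 and Atp2a1, and Ckm, another muscle gene of lower level, had the smallest unadjusted p of all genes. Ckm, muscle creatine kinase, had 3.53, 4.49, 1.09, 3.12, 8.42 and 8.67 CPM in high replicates 1 to 6, against 2.41, 1.57, 1.5, 1.15, 1.09 and 0.685 CPM in low replicates 1 to 6. The counts behind these values were 13, 16, 5, 16, 67 and 36 reads at the high rate and 11, 5, 6, 3, 8 and 4 reads at the low rate. High replicates 5 and 6 stood above the rest, high replicate 3 lay among the low-rate libraries, and the groups overlapped. The log2 fold change was 1.84 ± 0.45 (SE), with a 95% interval of 0.92 to 2.77, an unadjusted p of 0.00030 and an adjusted p of 0.999.

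Promoters of Ckm, Acta1 and Myh4, a fast myosin gene described below, are shown as 3 examples from the 8 muscle promoters matched. Expression of these genes is a textbook mark of muscle and not of neurons. In muscle, factors of the MyoD family bind E-boxes of the form CANNTG. The sequences run 5′ to 3′ on the gene's strand from 250 bases before to 50 bases after the annotated start, come from RefSeq (GRCm38.p6), and have each CANNTG in capitals. The window of Ckm lies at chr7:19410844-19411143 on the + strand, Acta1 at chr8:123894726-123895025 on the - strand and Myh4 at chr11:67237562-67237861 on the + strand.
Ckm: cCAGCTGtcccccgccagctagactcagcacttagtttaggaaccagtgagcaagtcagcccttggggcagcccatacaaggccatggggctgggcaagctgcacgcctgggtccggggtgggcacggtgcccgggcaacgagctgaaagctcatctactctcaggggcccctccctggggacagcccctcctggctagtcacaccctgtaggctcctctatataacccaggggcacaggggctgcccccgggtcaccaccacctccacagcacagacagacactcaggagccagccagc
Acta1: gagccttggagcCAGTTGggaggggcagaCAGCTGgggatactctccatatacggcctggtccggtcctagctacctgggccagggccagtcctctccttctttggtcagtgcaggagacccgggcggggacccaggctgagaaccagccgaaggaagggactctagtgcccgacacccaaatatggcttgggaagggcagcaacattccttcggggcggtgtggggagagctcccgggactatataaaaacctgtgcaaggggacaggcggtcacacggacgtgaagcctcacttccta
Myh4: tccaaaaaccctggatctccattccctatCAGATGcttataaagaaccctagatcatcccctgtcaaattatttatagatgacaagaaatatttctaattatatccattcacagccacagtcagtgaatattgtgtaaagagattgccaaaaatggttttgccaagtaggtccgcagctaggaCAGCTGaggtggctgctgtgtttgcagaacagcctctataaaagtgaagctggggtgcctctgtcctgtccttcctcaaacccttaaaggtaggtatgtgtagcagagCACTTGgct
Each of the 3 windows holds the version CAGCTG, which reads the same on both strands and is itself a case of CANNTG. The version CAGCTG occurs in 6 of the 8 muscle promoters matched, and Ttn and Mybpc2 lack it, while all 8 hold CANNTG. Of the 32851 promoter windows of 300 bases in the table, the version CAGCTG occurs in 16.3% and CANNTG in 72.3%, so the matches are a description of these windows and no evidence of binding.

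Atp2a1, the calcium pump of fast-twitch sarcoplasmic reticulum, had 8.42, 8.70, 4.6, 10.7, 30.5 and 32.0 CPM in high replicates 1 to 6, against 7.22, 4.41, 3.25, 11.5, 1.37 and 2.74 CPM in low replicates 1 to 6. Myh4, the fast myosin heavy chain 2B, had 17.7, 11.8, 14.0, 16.2, 101 and 45.5 CPM at the high rate, against 18.2, 9.45, 9.74, 28.7, 5.88 and 6.85 CPM at the low rate. Acta1, skeletal alpha-actin, had 10.0, 12.9, 9.19, 8.37, 28.3 and 24.8 CPM at the high rate, against 7.22, 8.82, 8.24, 11.9, 4.38 and 7.70 CPM at the low rate. In all 3 genes high replicates 5 and 6 held the highest values, and the other 4 high-rate libraries lay within or near the low-rate range. Ttn, titin, Neb, nebulin, and Tnnt3, fast troponin T, had the same 2 libraries on top. The log2 fold changes were 1.78 ± 0.52 for Atp2a1, 1.48 ± 0.54 for Myh4, 1.02 ± 0.30 for Acta1 and 1.03 ± 0.29 for Ttn (SE).

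A list of 32 skeletal muscle genes was drawn up after these values were seen and is therefore described without a test. Of its members, 19 passed the filter on low counts and 18 of these had a log2 fold change above 0, with a median of 0.88. Over all genes tested 49.0% stood above 0, with a median of -0.0044. The high-rate libraries counted towards the filter, so members of few reads, such as Ckm, could pass it through their high-rate values. The choice of the list and the filter both favour values above 0, and no conclusion is drawn from that share. The members present in the table summed to 308 to 600 CPM at the high rate and 221 to 418 CPM at the low rate. Much of this sum came from members that brain also expresses. Tpm1 had a mean of 147 CPM over the 12 libraries, Ryr1 55.8 CPM and Actn2 35.1 CPM, against 3.14 CPM for Ckm. Tnnc2 was listed at 0 in every accumbens library. Members that brain also expresses stood near 0: Myh7 at -0.07, Actn2 at 0.01, Ryr1 at 0.01 and Tpm1 at 0.04. Some members of few reads differed little as well. Tnni1, with 74 reads at the high rate and 67 at the low rate, stood at 0.12. In the fit of all 52 libraries Tnnc1 (52 and 48 reads) stood at 0.16 and Tnnt1 (22 and 24 reads) at -0.19. Other members of few reads, such as Ckm, stood well above 0. Whether expression in brain divides the list was not tested. Without high replicates 5 and 6 the list's median was 0.36, Ckm stood at 1.12, Atp2a1 at 0.80, Acta1 at 0.38 and Myh4 at 0.25. High replicate 5 was also the deepest library and had the highest cortical sum of the 12, and whether muscle RNA entered these samples at collection was not tested.

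**Figure D1:**
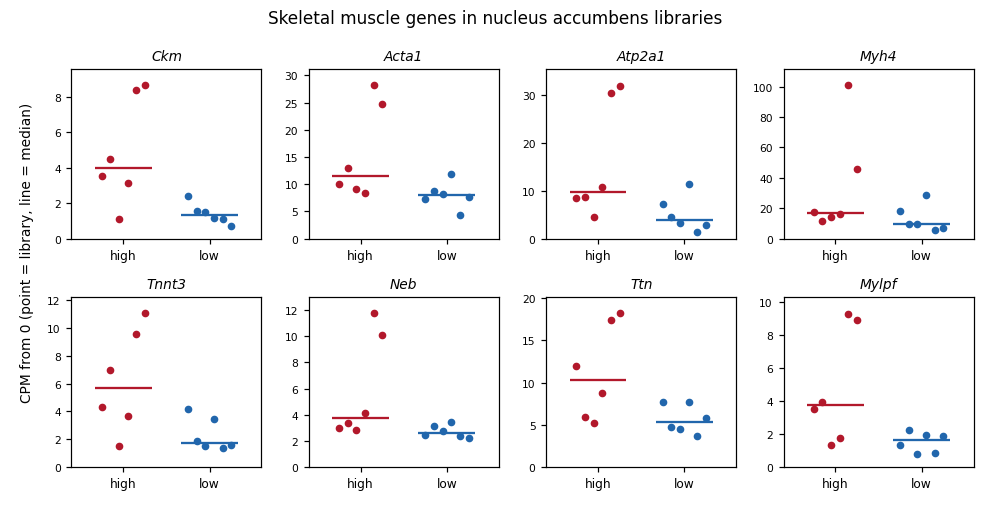
CPM of 8 skeletal muscle genes in the 6 high-rate and 6 low-rate accumbens libraries, each point a library with replicates 1 to 6 from left to right and each line a group median. High replicates 5 and 6 hold the 2 highest values in each panel, for example 8.42 and 8.67 CPM of Ckm.

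Outside muscle, the genes ranked first as higher at the high rate differed by less than 1 on the log2 scale, and none passed the threshold. Ppfibp2, a liprin-beta scaffold protein, had 16.6, 13.2, 16.9, 16.2, 13.1 and 10.6 CPM in high replicates 1 to 6, against 13.1, 6.30, 7.99, 8.80, 10.8 and 7.87 CPM in low replicates 1 to 6. Of the high-rate libraries 4 lay above all low-rate libraries and 2 lay below the highest of them, low replicate 1. Its log2 fold change was 0.64 ± 0.18 (SE; unadjusted p = 0.0021, adjusted p = 0.999). Keap1, the adaptor that targets the oxidative stress factor NRF2 for degradation, had 53.2, 58.4, 45.7, 62.7, 44.0 and 43.3 CPM at the high rate, against 44.4, 35.6, 40.7, 36.3, 37.9 and 42.6 CPM at the low rate. Only low replicate 1 reached into the high-rate range, and the log2 fold change was 0.37 ± 0.11 (SE; adjusted p = 0.999). Wdr55, Pop4 and Exosc5, which act in ribosomal RNA or tRNA processing, Eif3k, a subunit of translation initiation factor 3, and Aes, a co-repressor of the Groucho family, completed the list, with log2 fold changes between 0.36 (Pop4, Eif3k) and 0.65 (Wdr55).

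The 10 genes ranked first as lower included Eif4ebp2, the main translation repressor of the 4E-BP family in brain and a direct target of mTORC1. Eif4ebp2 had 18.2, 17.1, 15.3, 12.5, 19.8 and 18.5 CPM in high replicates 1 to 6, against 18.2, 20.2, 24.2, 23.7, 28.0 and 22.9 CPM in low replicates 1 to 6. Low replicate 1 lay inside the high-rate range and the other 5 low-rate libraries lay above all high-rate libraries. The log2 fold change was -0.44 ± 0.14 (SE), with a 95% interval of -0.73 to -0.15, an unadjusted p of 0.0044 and an adjusted p of 0.999. Fndc3b, a membrane protein with fibronectin type III domains, had 42.9, 41.5, 54.1, 35.2, 45.9 and 43.6 CPM at the high rate, against 57.1, 58.0, 55.9, 61.6, 50.2 and 51.5 CPM at the low rate. Only high replicate 3 reached into the low-rate range, and the log2 fold change was -0.34 ± 0.10 (SE; adjusted p = 0.999). Syt4, a synaptotagmin of dense-core vesicles, stood at -0.32, Lrrtm2, a postsynaptic adhesion protein that binds neurexin, at -0.43, and Irf9, a subunit of the interferon-activated ISGF3 complex, at -0.44. Adgrl4, an adhesion receptor of endothelium, Chordc1, a co-chaperone of HSP90, Cfap65, Scyl2 and Bmt2 ranged from -0.69 (Cfap65) to -0.31 (Scyl2).

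**Figure D2:**
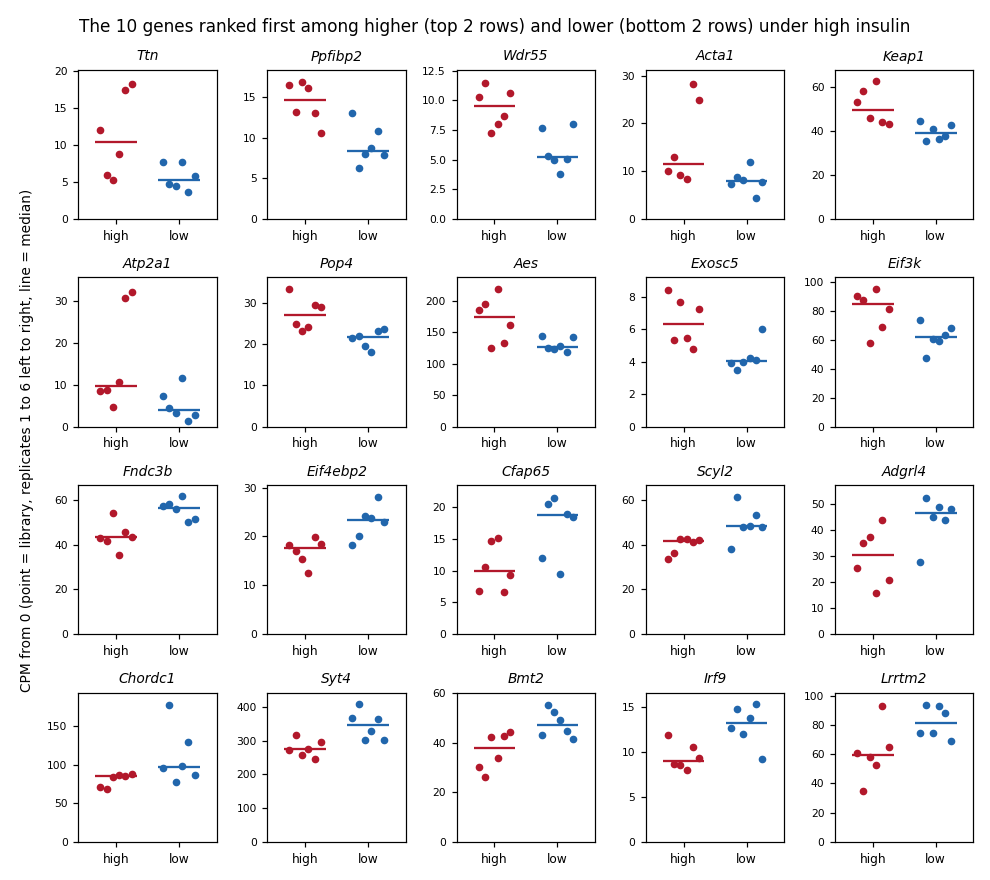
CPM of the 10 genes ranked first as higher and the 10 ranked first as lower at the high rate, in the 6 high-rate and 6 low-rate libraries, each point a library with replicates 1 to 6 from left to right and each line a group median. In every panel the groups overlap, and all 20 adjusted p-values are 0.999.

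For 1 gene of the 13769 tested all 6 high-rate libraries lay above all 6 low-rate libraries (0.00726%), and for 2 genes they lay below (0.0145%). These 3 genes were picked for that pattern after their values were seen. Trmt12, a tRNA-modifying enzyme, had 9.78, 7.86, 6.13, 8.18, 8.29 and 6.74 CPM in high replicates 1 to 6, against 5.25, 5.67, 5.74, 6.12, 5.61 and 4.45 CPM in low replicates 1 to 6. The gap between the groups was narrow, with high replicate 3 next to low replicate 4, and the log2 fold change was 0.53. Snw1, a splicing factor and transcriptional co-regulator, stood at -0.27 and Riox2, a histone and ribosomal protein hydroxylase, at -0.31. The adjusted p of each of the 3 was 0.999.

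Genes of insulin reception showed no called difference between the rates. Insr, the insulin receptor, had 109, 88.1, 178, 118, 126 and 130 CPM in high replicates 1 to 6, against 113, 171, 138, 123, 124 and 130 CPM in low replicates 1 to 6. The groups overlapped almost wholly, and the log2 fold change was -0.09 with a 95% interval of -0.37 to 0.19. Irs2, the adaptor that links the receptor to PI3K and is itself a FOXO target, had 62.5, 41.8, 72.2, 43.0, 53.5 and 41.6 CPM at the high rate, against 67.6, 51.3, 72.7, 50.5, 51.1 and 58.9 CPM at the low rate. Its log2 fold change was -0.16 with an interval of -0.48 to 0.15. Irs1, the other widely expressed adaptor, stood at -0.13 (-0.58 to 0.31), and Igf1r, the receptor of IGF1, at -0.22 (-0.59 to 0.15). Each of these 4 intervals excludes a doubling and a halving. Of 13 receptor and adaptor genes tested, 0 were called in either direction, 3 stood above 0 and 10 below, with a median of -0.09. Shc1, which couples the receptor to RAS, stood at -0.34 and Sh2b2, an adaptor that binds the receptor's kinase domain, at 0.43, with intervals that include 0.

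Downstream of the receptor, 0 of 18 genes of the PI3K and AKT arm were called, 14 stood below 0 and the median was -0.06. All 18 had intervals inside -1 to 1 and 15 inside -0.5 to 0.5. Gsk3a, a kinase that AKT inhibits, stood at 0.16 and its paralogue Gsk3b at -0.17. Of 16 genes of the mTOR complexes and their regulators, 0 were called and 9 stood below 0. Apart from Eif4ebp2, the gene of smallest p was Rps6kb1, the S6 kinase, at -0.17 (-0.43 to 0.09).

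FOXO factors, listed together with genes that they or fasting raise in other tissues, showed no called difference: 0 of 18, with 9 above and 9 below 0. Angptl4, an inhibitor of lipoprotein lipase that fasting raises, had 7.33, 8.98, 10.1, 7.79, 6.28 and 7.70 CPM in high replicates 1 to 6, against 6.34, 4.72, 6.99, 2.68, 6.70 and 8.56 CPM in low replicates 1 to 6. The medians were 7.75 CPM at the high rate and 6.52 CPM at the low rate, with overlapping groups, the median of the 6 saline libraries was 11.1 CPM, and the log2 fold change was 0.36 (-0.17 to 0.90). Sesn3, a FOXO-induced regulator of mTORC1, had 16.8, 18.5, 70.5, 75.9, 29.8 and 101 CPM at the high rate, against 43.3, 88.2, 32.2, 24.9, 26.7 and 37.5 CPM at the low rate. It spread over a wide range within each group, and its interval, -0.66 to 1.30, does not exclude a doubling. Txnip, a glucose-induced inhibitor of thioredoxin, stood at 0.03 (-0.32 to 0.38), Cdkn1a, a cell cycle inhibitor that FOXO factors induce, at 0.24, and Foxo6 at 0.46 with high replicate 1 far above the others.

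Sterol and lipid synthesis genes showed no called difference between the rates. Of 28 genes of sterol sensing and cholesterol synthesis, 0 were called, 14 stood above and 14 below 0, the median was -0.0014, and all 28 intervals lay inside -1 to 1. Insig1, which holds the SREBP escort SCAP in the endoplasmic reticulum and is a SREBP target itself, had 75.0, 75.5, 47.9, 66.6, 71.7 and 73.2 CPM in high replicates 1 to 6, against 69.8, 50.7, 58.9, 63.5, 90.7 and 67.1 CPM in low replicates 1 to 6. Apart from high replicate 3 the high-rate libraries lay close together within the low-rate range, and the log2 fold change was 0.03 (-0.25 to 0.31). Acat2, the cytosolic acetoacetyl-CoA thiolase of the mevalonate pathway, had the smallest p of the list, at 0.31 ± 0.12 (SE; unadjusted p = 0.015, adjusted p = 0.999). Srebf1, which encodes SREBP1, stood at 0.19 (-0.04 to 0.41). Of 12 fatty acid synthesis genes, 0 were called and 8 stood below 0, with Acacb, a mitochondrial acetyl-CoA carboxylase, at 0.20 and Acly, ATP citrate lyase, at 0.10.

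**Figure D3:**
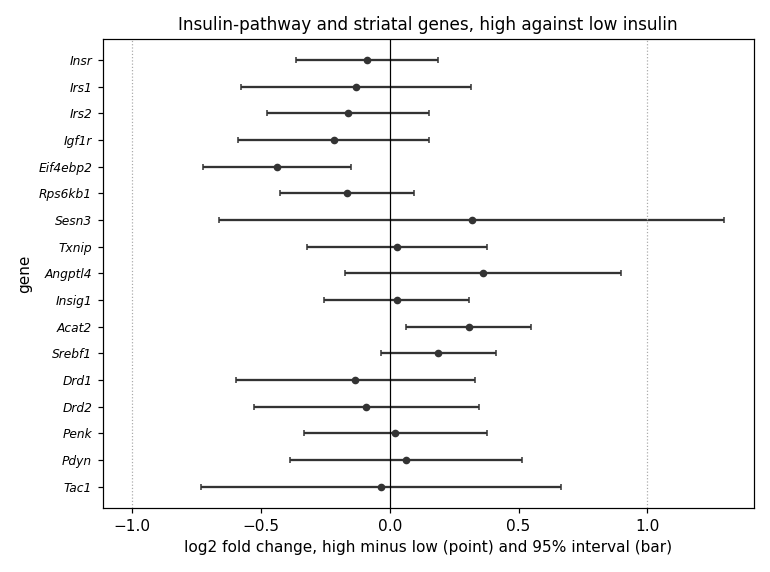
Log2 fold change, high minus low rate, of 17 insulin-pathway and striatal genes, with the 95% interval as a bar and dotted lines at -1 and 1. Sesn3 alone has an interval that passes 1, Eif4ebp2 and Acat2 have intervals that leave out 0, and the adjusted p of each of the 17 is 0.999.

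In 3 lists of energy metabolism and translation most members had a positive log2 fold change and none was called. Of 39 nuclear-encoded respiratory chain genes 36 stood above 0, with a median of 0.17, of 72 cytosolic ribosomal protein genes 62 stood above 0, with a median of 0.14, and of 23 genes of glucose transport and glycolysis 20 stood above 0, with a median of 0.13. Over all genes 49.0% stood above 0, and genes of a list are not independent of each other. The groups overlapped in the summed level of each list. The respiratory list summed to 4949 to 6507 CPM at the high rate and 4728 to 5642 CPM at the low rate. High replicates 3, 5 and 6 lay inside that low-rate range, at 4949, 5236 and 5390 CPM. The libraries differed in their lean to GC-rich transcripts, which is given as the Spearman correlation across genes between a library's deviation from the mean of all accumbens libraries and transcript GC content. It ran from -0.34 to 0.59 in the high-rate group and from -0.43 to 0.42 in the low-rate group, with no difference detected between the groups by a two-sided exact permutation test (p = 0.52). With that lean as a covariate the medians were 0.15, 0.10 and 0.06, and the part of the lean in the rest was not tested. Without low replicate 4 the ribosomal median was 0.08. Without the 5 libraries of highest cortical sum it was 0.04. Ndufv1, a core subunit of complex I, had 127, 126, 88.9, 114, 86.6 and 85.5 CPM in high replicates 1 to 6, against 105, 70.5, 84.4, 79.9, 68.1 and 79.1 CPM in low replicates 1 to 6. Low replicate 1 reached into the high-rate range, and the log2 fold change was 0.36 ± 0.15 (SE; adjusted p = 0.999). Rpl36 stood at 0.54, Rps3 at 0.26, and Aldoa, the glycolytic aldolase A, at 0.21, while Pfkfb3, which makes the activator of phosphofructokinase, stood at -0.19. The 11 mitochondrially encoded genes tested had 3 above and 8 below 0.

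**Figure D4:**
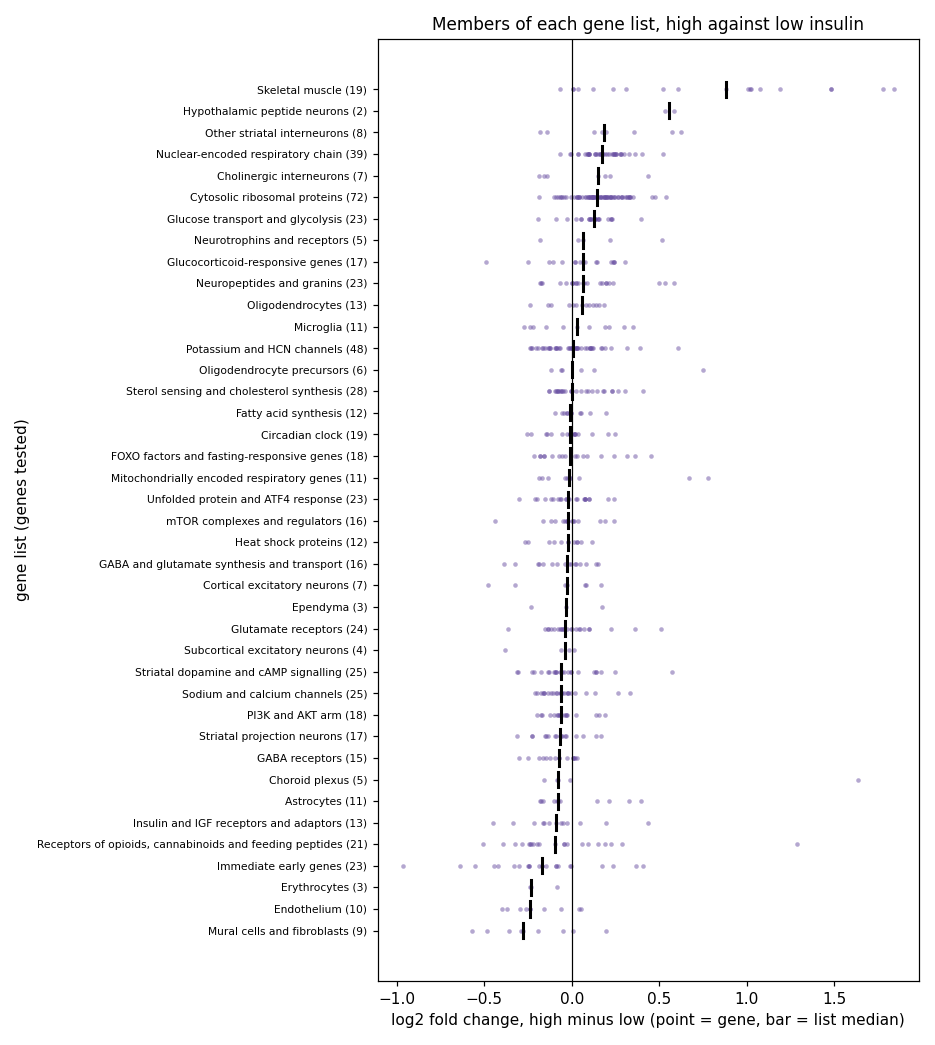
Log2 fold change, high minus low rate, of the tested members of 40 gene lists, each point a gene and each bar a list median, ordered by median. The skeletal muscle list stands at 0.88, the hypothalamic peptide list of 2 genes at 0.56, which became 0.01 without high replicate 4, and all other medians lie between -0.28 and 0.18.

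Dopamine receptors and the peptides of the 2 classes of projection neuron showed no called difference between the rates. Drd1, the D1 receptor of the direct pathway, had 280, 231, 474, 172, 228 and 292 CPM in high replicates 1 to 6, against 297, 390, 357, 350, 159 and 287 CPM in low replicates 1 to 6. Drd2, the D2 receptor of the indirect pathway, had 65.4, 46.6, 74.6, 31.2, 44.6 and 60.7 CPM at the high rate, against 61.7, 54.2, 82.9, 54.3, 29.4 and 62.0 CPM at the low rate. High replicate 3 was high and high replicate 4 and low replicate 5 were low for both receptors, and the log2 fold changes were -0.13 (-0.60 to 0.33) and -0.09 (-0.53 to 0.34). Penk, the enkephalin precursor of D2 neurons, ranged from 616 to 1137 CPM (median 979) at the high rate and from 523 to 1214 CPM (median 950) at the low rate, with a log2 fold change of 0.02 (-0.34 to 0.38). Pdyn, the dynorphin precursor of D1 neurons, stood at 0.06 (-0.39 to 0.51), and Tac1, the substance P precursor of the same neurons, at -0.03 (-0.73 to 0.66). Of 25 genes of dopamine and cAMP signalling tested, 0 were called and 18 stood below 0, with a median of -0.06 that became 0.03 without high replicate 4. Pde10a, the striatal phosphodiesterase, stood at -0.32 and Arpp19, a phosphatase inhibitor that protein kinase A phosphorylates, at -0.31, with intervals that include 0. Th, which makes dopamine's precursor and in the accumbens comes from sparse interneurons, stood at 0.57 ± 0.26 (SE; unadjusted p = 0.036, adjusted p = 0.999).

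Ion channels and receptors for transmitters had no called member. Of 25 voltage-gated sodium and calcium channel genes 20 stood below 0, with a median of -0.06, of 15 GABA receptor genes 10 stood below 0, with a median of -0.07, of 24 glutamate receptor genes 14 stood below 0, and of 48 potassium and HCN channel genes 26 stood above 0. Without high replicate 2 the sodium and calcium channel median was -0.00083. Cacna1a, the P/Q-type calcium channel, stood at -0.21, Grm8, a presynaptic glutamate autoreceptor, at -0.36, and Kcnh5, an EAG-type potassium channel, at 0.61. Cnr1, the cannabinoid receptor CB1, stood at -0.19, and of 21 receptors for opioids, cannabinoids and feeding peptides 0 were called. Of 23 neuropeptide and granin genes 18 stood above 0, with a median of 0.06 that became -0.0043 without high replicate 1, and Chga, a granin of dense-core vesicles, stood at 0.24.

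Of 23 immediate early genes, which neuronal activity induces, 4 stood above 0, the median was -0.17 and 0 were called. Nr4a3, an orphan nuclear receptor, had 23.4, 14.3, 37.2, 9.74, 39.4 and 14.7 CPM in high replicates 1 to 6, against 29.7, 37.8, 32.7, 70.4, 15.0 and 25.0 CPM in low replicates 1 to 6. Low replicate 4, which has the group's highest cortical sum, held the highest value, and without it the list's median was 0.0061. Without high replicates 4 and 6 it was 0.04. Jund, an AP-1 subunit that is expressed without stimulation, stood at 0.41 ± 0.16 (SE; unadjusted p = 0.017, adjusted p = 0.999). Of 17 glucocorticoid-responsive genes 0 were called and 12 stood above 0, while Nr3c1, the receptor itself, stood at -0.25. Of 23 genes of the unfolded protein and ATF4 response, 12 heat shock genes and 19 clock genes, 0 were called, with medians of -0.02, -0.02 and -0.0099. Pdia4, an endoplasmic reticulum chaperone, stood at -0.30, Dnaja1, a co-chaperone of HSP70, at -0.25, and Per2, a clock repressor, at -0.26. Ntrk2, the BDNF receptor, stood at -0.18 with an interval of -0.38 to 0.01.

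Markers of cell types showed no called difference, and in bulk tissue fewer cells of a type cannot be told apart from less RNA per cell. Markers of vessels were lower in 2 high-rate libraries. The summed level of 10 endothelial markers was 291, 297, 299, 170, 319 and 171 CPM in high replicates 1 to 6, against 285, 315, 294, 345, 294 and 280 CPM in low replicates 1 to 6. High replicates 4 and 6 lay well under all other libraries, and the remaining 4 lay in the low-rate range. Adgrl4 had 25.5, 35.1, 37.2, 15.8, 43.7 and 20.9 CPM at the high rate, against 27.6, 52.3, 44.9, 49.0, 43.8 and 47.9 CPM at the low rate. Its log2 fold change was -0.56 ± 0.20 (SE; unadjusted p = 0.010, adjusted p = 0.999). Abcb1a, the P-glycoprotein drug efflux pump of the blood-brain barrier, stood at -0.40 and Ly6c1 at -0.26, and 8 of the 10 markers stood below 0 with a median of -0.24. Without high replicates 4 and 6 the median was -0.06, 6 of 10 stood below 0, and Adgrl4 and Abcb1a stood at -0.31 and -0.20. Of 9 mural and fibroblast markers 7 stood below 0, with a median of -0.28 that became 0.07 without low replicate 1, in which Tagln, a smooth muscle protein, had 20.3 CPM.

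**Figure D5:**
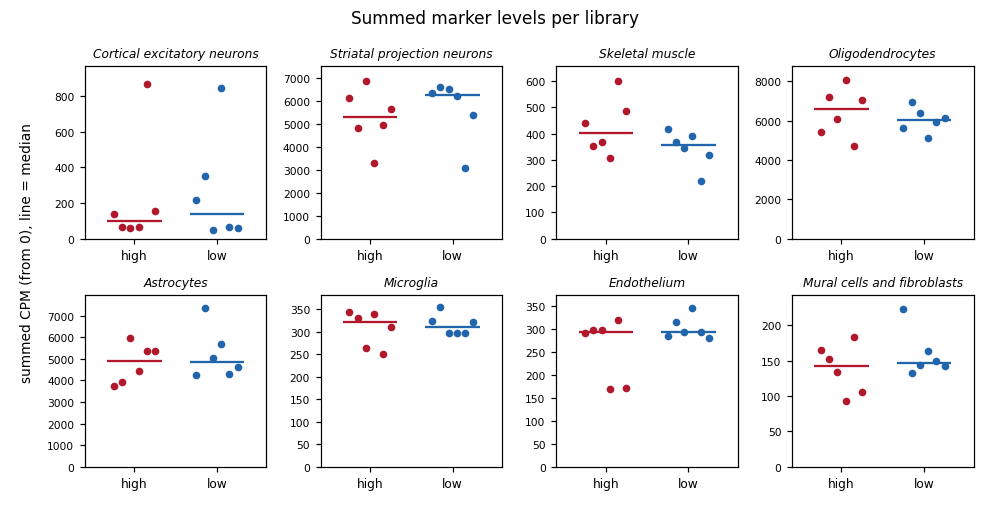
Summed CPM of 8 marker lists in the 6 high-rate and 6 low-rate libraries, each point a library with replicates 1 to 6 from left to right and each line a group median. Cortical markers reach 872 CPM in high replicate 5 and 847 CPM in low replicate 4, and endothelial markers stand at 170 and 171 CPM in high replicates 4 and 6. The skeletal muscle sum includes genes that brain also expresses, such as Tpm1.

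Neuronal and glial markers overlapped between the groups. Of 17 projection neuron markers 13 stood below 0, with a median of -0.07 that became 0.03 without high replicate 4 or without the 5 libraries of highest cortical sum. Pvalb, a marker of fast-spiking interneurons, stood at 0.63 ± 0.28 (SE; unadjusted p = 0.038, adjusted p = 0.999), with 4.6 CPM in high replicate 3 and 14.9 to 18.1 CPM in the other high-rate libraries, against 5.67 to 15.7 CPM in the low-rate libraries. The 13 oligodendrocyte markers summed to 4686 to 8086 CPM at the high rate and 5135 to 6941 CPM at the low rate, with a median log2 fold change of 0.06. Astrocyte markers, 11 in all, summed to 3725 to 5972 CPM at the high rate and 4244 to 7342 CPM at the low rate, with a median of -0.08. Microglial markers, of which 11 passed the filter, summed to 252 to 344 CPM at the high rate and 297 to 356 CPM at the low rate, with a median of 0.03. Cholinergic interneuron markers, 7 in all, had a median of 0.15, 8 markers of other interneurons 0.18, 6 of oligodendrocyte precursors -0.0014 and 4 of subcortical excitatory neurons -0.04. The cholinergic median was -0.04 without high replicate 2 and -0.05 without low replicate 4, and the oligodendrocyte median was -0.05 without high replicate 4 and -0.03 without low replicate 4. Choroid plexus, ependyma and erythrocyte markers had 5, 3 and 3 members past the filter, with medians of -0.08, -0.03 and -0.23. The median of choroid plexus markers was 0.13 without high replicate 5 and 0.06 without low replicate 6. That of ependyma markers was 0.10 without high replicate 5 or low replicate 1 and 0.01 without low replicate 2. That of erythrocyte markers was 0.03 without high replicate 5 and 0.26 without low replicate 3. Of the 40 list medians, 24 changed sign when 1 of the 18 accumbens libraries was left out.

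Set beside the saline libraries, which both comparisons share, neither rate differed by any called gene: low minus saline gave 0 of 13769 (0%) with 196 at an unadjusted p under 0.05 (1.42%), and high minus saline gave 0 (0%) with 326 (2.37%). For Ckm, low minus saline was -0.28 and high minus saline 1.56. For Ppfibp2 they were -0.47 and 0.16, for Eif4ebp2 0.17 and -0.27, for Angptl4 -0.77 and -0.41, and for Insr -0.07 and -0.16. None of these values was called, and Ppfibp2 and Eif4ebp2 had opposite signs against saline at the 2 rates.

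Whether the difference between the rates was particular to the accumbens was tested as an interaction in 1 model of all 52 libraries. Against the hypothalamus 0 of 14985 genes differed (0%), with 197 at an unadjusted p under 0.05 (1.31%), and against the hippocampus 0 differed (0%), with 462 (3.08%). DESeq2 called 0 in each, with 169 and 459 at an unadjusted p under 0.05, and limma-voom called 0, with 172 and 334. In that model the high minus low log2 fold change of Ttn was 1.02 in accumbens, -0.10 in hypothalamus and -0.11 in hippocampus. Other members of the muscle list stood on both sides of 0 in hypothalamus. Those above 0 included Ckm at 0.84, Acta1 at 0.68, Atp2a1 at 0.53, Tnnt3 at 0.35 and Myh4 at 0.26. Those below 0 included Tnnt1 at -1.34, Tpm2 at -0.56, Casq1 at -0.35, Cacna1s at -0.22, Tnni1 at -0.12 and Neb at -0.02. In hippocampus Ckm, Acta1, Atp2a1, Tnnt3, Myh4 and Neb ranged from -0.40 (Ckm) to 0.20 (Acta1, Neb). Ppfibp2 stood at 0.64 in accumbens, -0.02 in hypothalamus and -0.21 in hippocampus. Eif4ebp2 stood at -0.44 in accumbens, -0.05 in hypothalamus and 0.07 in hippocampus. For each of the genes given here the adjusted p of the interaction was 0.9999 against the hypothalamus and 0.96 against the hippocampus. No difference between regions passed the threshold.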

How the data were processed

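Total RNA of mouse nucleus accumbens was made into stranded libraries (Wafergen reagents) and read on a HiSeq 2500, per the labels. The values are raw counts of reads per Ensembl gene that the authors deposited without normalization. The submitters' processing notes name STAR, featureCounts and GRCm38.p4; no version, option, strand setting or annotation release is given in the sources used here, so overlapping and antisense genes, near-identical paralogues and PCR copies cannot be separated. GENCODE M21 symbols matched 45143 of 46071 identifiers. The members and lists were chosen with earlier results of these data known, and the muscle list after its values were seen.

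The 18 accumbens libraries (6 high, 6 low, 6 saline) were fitted in edgeR 4.0.16 under R 4.3.3 with TMM, filterByExpr and robust quasi-likelihood tests of high minus low. P-values were adjusted by Benjamini-Hochberg over 13769 genes, at a threshold of 0.05. CPM use TMM-scaled totals. Standard errors and 95% intervals come from the fitted weights. The procedure was also run on counts simulated from its own model, with each gene drawn independently. Those counts lack the shared differences between these libraries, so no conclusion about these data is drawn from them. Genes named are, per direction, the 10 of smallest p with a mean of at least 5 CPM and a gene symbol that is not a predicted one, 2 per list, and 13 insulin and striatal genes always named. The muscle genes other than Ttn, Acta1 and Atp2a1 and the 3 genes with separate groups fall outside this rule. So do Slc17a7, Irs4, Gabrq, Tbr1 and Oprm1. Within groups, chi-square per gene between libraries was 3.46 to 25.6, so none was a second reading of the same library. That value cannot show whether libraries came from separate animals. Alternatives used DESeq2 1.42.0, limma 3.58.1 and sva 3.50.0. Of 11 muscle genes looked up in the RefSeq promoter table, 8 matched. The values of 3 genes that the naming rule picks are not reported here.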

Additional observations from a re-analysis of the deposited data

Results flagged for a closer look

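In each group of 6, a value was singled out when its gap to the nearest other value exceeded 0.625 of the group's range. Of 242 groups checked 14 had such a library, 5.79%, where chance gives about 1 in 20, so no pattern is read from them. High replicate 5 had the highest total, 8279612 counts, and the highest cortical marker sum, 872 CPM. High replicate 3 was lowest for Pvalb at 4.6 CPM and for Insig1 at 47.9 CPM and highest for Kl at 16.4 CPM. High replicate 1 was highest for Foxo6 at 18.7 CPM. Low replicate 1 was lowest for Adgrl4 at 27.6 CPM and for Rps6kb1 at 43.3 CPM and highest for Tagln at 20.3 CPM and Eno3 at 19.0 CPM. Low replicate 2 was highest for Sesn3 at 88.2 CPM and Rora at 94.8 CPM. Low replicate 5 was lowest for Tpm1 at 103 CPM, and low replicate 6 was highest for Exosc5 at 5.99 CPM.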

How the results depend on the processing

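The count of called genes was 0 in each of the 35 other settings tried, with 203 to 1002 genes at an unadjusted p under 0.05. The smallest adjusted p in any setting was 0.29, without high replicate 3. The settings were another scaling, no filter, DESeq2, limma-voom, only 12 or all 52 libraries, tag run, tag range, total count, GC lean, cortical level or 1 surrogate variable as a term, a threshold of 0.1, each of 18 libraries left out, and sets of libraries left out. Removing high replicates 5 and 6, high replicates 4 and 6, or the 5 libraries of cortical sum over 300 CPM was chosen after seeing the data. The counts of both interactions were 0 in all 29 and 30 settings. Replicate numbers coincide with runs of neighbouring tags. The deviations of same-numbered high and low libraries correlated between -0.34 and 0.57, with 3 of the 6 values below 0. Each library was the other's best partner in replicate 1 alone. The labels do not say what a run of tags stands for, and the libraries were not treated as pairs. With the replicate block 0 genes were called, with 458 at an unadjusted p under 0.05; both interactions also gave 0 with the block. The depth test gave p = 0.80 in the exact permutation test over tested genes as well. Of 102 named genes outside the muscle list 84 kept their sign in every setting and 18 did not, and of 19 muscle genes 12 kept it and 7 did not: Myh7, Actn2, Ryr1 and Tpm1, which brain also expresses, Tnni1 at 0.12, Des at 0.31 (-0.05 to 0.50 over the settings) and Tpm2 at 0.23 (-0.18 to 0.72). Depth limits genes of few reads, such as Ckm with 3 to 67 reads per library at the 2 insulin rates.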

Other observations

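Several of the genes that varied most among libraries of the same rate mark neighbouring regions, and those named here were chosen after their values were seen. Over 7851 genes with a mean of at least 20 CPM that are not predicted genes, the pooled within-group SD of log2(CPM + 0.5) was highest for Slc17a7, the vesicular glutamate transporter of cortical neurons, at 2.97, against a median of 0.30 over all genes tested. Slc17a7 ranged from 5.26 to 546 CPM at the high rate and from 2.46 to 559 CPM at the low rate. Irs4, an insulin receptor substrate with high expression in hypothalamus, followed among the first 3 at 1.92, from 0.879 to 67.8 CPM at the high rate and from 3.44 to 115 CPM at the low rate. Gabrq, a GABA receptor subunit of hypothalamus and brainstem, stood at 1.72, and Tbr1, a cortical transcription factor, at 1.49. The median size of the high minus low difference was 0.11 on the same scale, and it exceeded the within-group SD in 850 of 13769 genes.

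Irs4 was the lowest member of the receptor and adaptor list, at -0.45 with an interval of -2.12 to 1.21, so its level between the rates is not bounded by these libraries. Oprm1, the mu-opioid receptor, stood at 1.29 with an interval of 0.03 to 2.54 and with 9.35 and 10.1 CPM in high replicates 4 and 6 against 0 to 4.38 CPM in the other high-rate libraries and 0.821 to 4.09 CPM in the low-rate libraries. Oprm1 was the highest member of its list and was picked after its values were seen. The adjusted p of Oprm1 was 0.999.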
